A study of Mus musculus with 24 samples.

Results

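Polyamine metabolism was followed through 10 genes of synthesis and turnover in mouse gastrocnemius muscle: Odc1, Amd1, Amd2, Srm, Sms, Sat1, Smox, Azin1, Oaz1 and Oaz2. They were chosen by name, and all 10 were found among the 55416 genes of the count table and passed the filter on low counts with 16408 genes in all. Male mice held several times more Amd1 mRNA than female mice, whichever way they were housed. Smox, Amd2 and Azin1 were also higher in males over both treatments, in a comparison added after the data were seen. Odc1 passed there too, but lost its call in most fits that left out 1 library. Amd2 is nearly the same in sequence as Amd1, so its counts are not a clearly separate measure. No member passed the test for an effect of inactivity in either sex.

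The study asked how physical inactivity alters skeletal muscle. Mice lived for 8 weeks in a small mouse cage (SMC), a box with little clearance that restricts walking, or stayed freely ambulatory as sham mice. RNA was sequenced from 6 sham and 6 SMC mice of each sex, 1 library per mouse. The strain is entered as C56BL6J in the sample labels and is C57BL/6J, bought at 8 weeks of age, in the methods. These mice carried no transgene. Sham and SMC mice shared a cage in some experiments and not in others, and which applied to these libraries is not given in the sources used here. The tissue label is skeletal muscle, and the mRNA is of whole muscle, so that fewer cells of one type and less RNA per cell cannot be told apart.

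Polyamines are small positively charged molecules that bind nucleic acids and are needed for growth and translation. Ornithine decarboxylase (Odc1) makes putrescine, and S-adenosylmethionine decarboxylase (Amd1, Amd2) makes the aminopropyl donor with which spermidine synthase (Srm) and spermine synthase (Sms) lengthen it. Spermine oxidase (Smox) and spermidine/spermine acetyltransferase (Sat1) lead back, while antizymes (Oaz1, Oaz2) direct ornithine decarboxylase to degradation and the antizyme inhibitor (Azin1) opposes them. In muscle several of these genes are known for their response to androgens and to loss of activity.

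Library totals lay between 23026627 and 36880413 counts. Defining muscle fibre markers were abundant in all 24 libraries, with a summed level of 71903 to 142214 CPM (read counts scaled to library size after TMM) and overlapping ranges in the 4 groups. Male sham replicate 4 and female sham replicate 7 stood apart through low slow fibre markers, at 67.4 and 58.8 CPM against group medians of 1483 and 1963, and male sham replicate 4 also held the highest sum of muscle atrophy genes, at 5172 CPM against a median of 1079. Female sham replicate 7 held the highest atrophy sum of its group, at 3073 CPM against a median of 1737. The atrophy list moved with housing as well: over both sexes 6 of its 10 genes were called lower in SMC and 0 higher. Its part in the values of the polyamine genes was not tested.

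Amd1 and Amd2 are shown as sequence because nearly all of their transcript is the same, which bears on how far their counts can be kept apart. Amd1 (ENSMUSG00000075232, chr10:40287458-40302186, minus strand, GRCm38) has 8 exon blocks, and Amd2 (ENSMUSG00000063953, chr10:35708675-35711892, minus strand) is a single exon. Their coding sequences of 1002 bases each differ at 1 base, G796C, with positions counted from 1 at the first coding base and the Amd1 base first. The 60 coding bases from 766 to 825 are given with that base in capitals.
Amd1: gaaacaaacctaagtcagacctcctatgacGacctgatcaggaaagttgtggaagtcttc
Amd2: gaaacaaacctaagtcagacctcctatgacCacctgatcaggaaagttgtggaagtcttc
The whole transcripts, of 3204 and 3218 bases, were 99.1% identical, and 86.1% of the 50-base words of Amd1 also occur in Amd2. A split of reads between both genes is therefore uncertain, and the Amd2 values below carry that limit. Processed pseudogenes share words with other members too: Oaz1-ps holds 52.2% of those of Oaz1 and Gm7993 20.3% of those of Odc1, with mean counts of only 16.8 and 69.2 per library.

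The other members are likewise protein-coding genes on GRCm38: Odc1 at chr12:17544794-17551505 (plus strand), Smox at chr2:131491496-131525922 (plus), Azin1 at chr15:38487427-38519266 (minus), Srm at chr4:148591503-148594993 (plus), Sms at chrX:157443855-157492287 (minus), Sat1 at chrX:155213132-155216449 (minus), Oaz1 at chr10:80826656-80829290 (plus) and Oaz2 at chr9:65668001-65690300 (plus). Within Odc1 lies a small nucleolar RNA gene on the same strand, Gm22748, with a mean of 45.4 counts per library against 2648 for Odc1. Azin1 overlaps an antisense gene, Gm49077, with a mean of 2.29 counts against 861.

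The windows of 250 bases before the RefSeq start of Amd1, Amd2, Smox and Odc1 are shown because these are 4 of the 5 genes with the sex differences below and differ in the bases that precede them. They are RefSeq sequence on GRCm38.p6, read on the strand of the gene, with every CG pair in capitals. They lie at chr10:40302189-40302438 (minus strand, Amd1), chr10:35711892-35712141 (minus strand, Amd2), chr2:131491612-131491861 (plus strand, Smox) and chr12:17544623-17544872 (plus strand, Odc1). RefSeq starts differ from the GENCODE gene bounds given above, so that the Smox window lies wholly inside those bounds and the Odc1 window runs into them.
Amd1: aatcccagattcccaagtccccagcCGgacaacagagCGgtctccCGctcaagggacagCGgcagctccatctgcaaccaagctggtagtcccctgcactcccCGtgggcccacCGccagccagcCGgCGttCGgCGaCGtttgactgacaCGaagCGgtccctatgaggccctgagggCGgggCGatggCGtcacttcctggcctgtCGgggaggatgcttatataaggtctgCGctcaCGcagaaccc
Amd2: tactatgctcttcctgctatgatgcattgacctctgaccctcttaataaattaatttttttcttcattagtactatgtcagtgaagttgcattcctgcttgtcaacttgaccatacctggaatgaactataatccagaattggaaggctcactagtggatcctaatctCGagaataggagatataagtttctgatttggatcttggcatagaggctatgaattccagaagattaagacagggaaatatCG
Smox: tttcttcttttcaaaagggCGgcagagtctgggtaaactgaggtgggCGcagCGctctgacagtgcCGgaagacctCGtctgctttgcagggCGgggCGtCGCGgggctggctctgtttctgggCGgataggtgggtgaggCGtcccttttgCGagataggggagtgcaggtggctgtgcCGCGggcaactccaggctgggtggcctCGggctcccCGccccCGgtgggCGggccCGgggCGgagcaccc
Odc1: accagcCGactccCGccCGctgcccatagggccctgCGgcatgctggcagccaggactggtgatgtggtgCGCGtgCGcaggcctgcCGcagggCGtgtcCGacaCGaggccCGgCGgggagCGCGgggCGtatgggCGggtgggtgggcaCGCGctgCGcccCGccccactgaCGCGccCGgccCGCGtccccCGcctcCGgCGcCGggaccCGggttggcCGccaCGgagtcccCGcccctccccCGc
The Amd1 window held 19 CG pairs and the Amd2 window 2, against a median of 6 over 32851 such windows. Smox held 20 and Odc1 35, with a GC content of 80.0% for Odc1 against a median of 52.4%. Windows were found for 8 of the 10 members. A search on both strands for the E-box CACGTG (in 6.02% of all windows), the steroid receptor half-site AGAACA (16.1%) and the TATA box TATAAA (12.4%) found none of these letters in the 4 windows printed. Only these exact letters were searched. Near variants, such as the tataag in the printed Amd1 and Amd2 windows, were not counted, so the result does not show that a TATA box is absent. Among the other members, an E-box was in 1 of the Sms windows and a half-site in those of Sat1 and Oaz2.

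Levels between genes were compared as CPM per kilobase of exon, with all annotated exons of a gene joined. This length can exceed that of the mRNA. It was 2558 bases for Oaz1, whose longest coding transcript held 1022 50-base words, and 3542 for Amd1, against a transcript of 3204. The order and the overlaps below rest on that choice, and other lengths were not tried. By this measure Amd1 stood first in both male groups, at 168 ± 50.6 (SD, n = 6) in sham and 198 ± 89.6 in SMC. Its ranges there did not overlap with those of the gene next in order. In male sham mice the lowest Amd1 value, 90.2, still lay below the highest value of Odc1, 97.2. In females Oaz1 led, at 49.4 ± 5.58 in sham and 46.8 ± 4.18 in SMC, and Amd1 came next at 34.2 ± 12.96 and 25.8 ± 3.02. The ranges of Oaz1 and Amd1 overlapped in female sham mice and not in female SMC mice. Smox and Odc1 were neighbours in sham mice of both sexes and did not differ beyond their spread there, at 42.9 ± 16.1 and 43.1 ± 28.2 in males and 24.5 ± 6.59 and 25.1 ± 14.5 in females. Sms, Azin1, Sat1 and Srm lay between 2.75 and 12.5 per kilobase on average in every group. Amd2 was lowest throughout, from 0.238 in female SMC to 2.68 in male SMC mice, where its range overlapped with that of Srm.

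**Figure D1:**
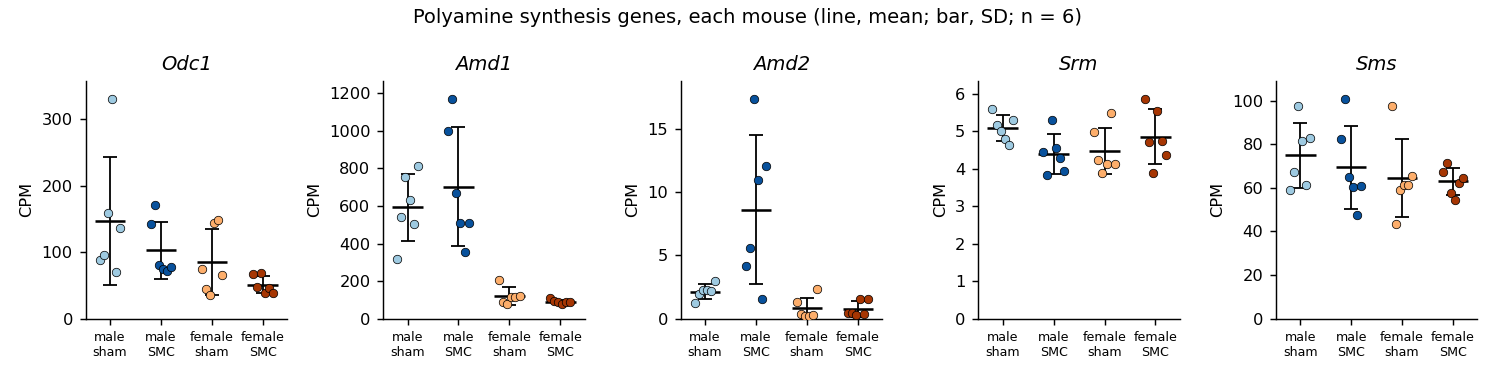
CPM of the 5 genes of polyamine synthesis in each mouse, with 1 point per mouse, the group mean as a line and the SD as a bar (n = 6 per group, separate linear axes from 0). The Amd1 points of both male groups, from 319 to 1171 CPM, lie above all female points, which end at 208 CPM, whereas the 4 groups of Srm and Sms overlap.

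Amd1 showed the clearest difference between the sexes. In sham mice its level ran from 319 to 810 CPM in males, with a median of 586, and from 78.8 to 208 CPM in females, with a median of 116. In SMC mice the male values ran from 354 to 1171 CPM around a median of 590 and the female values from 75.8 to 109 CPM around a median of 90.0. Every male mouse was above every female mouse. The fitted log2 fold change, males over females, was 2.29 (SE 0.269, edgeR FDR 1.35e-05) in sham and 2.94 (SE 0.276, edgeR FDR 2.23e-07) in SMC mice. Among the 16408 genes tested it ranked 11 and 9 by p-value. With the counts of Amd1 and Amd2 added as 1 gene, both differences remained past the threshold. They also did so in each of the other alternatives, with log2 fold changes of 2.29 to 2.51 in sham and 2.78 to 2.95 in SMC mice, and in every fit that left out 1 library, with 2.19 to 2.53 and 2.74 to 3.07.

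Smox, the oxidase that returns spermine to spermidine, followed in the same direction. In SMC mice it lay between 160 and 341 CPM in males (median 248) and between 49.98 and 91.7 CPM in females (median 85.0), with no overlap. Its log2 fold change there was 1.71 (SE 0.247, edgeR FDR 0.000199), or 3.26-fold higher in males. In sham mice the ranges overlapped, with 111 to 254 CPM in males (median 136) and 48.9 to 127 CPM in females (median 98.3). The log2 fold change of 0.81 (SE 0.242) missed the threshold in edgeR (FDR 0.0822) and passed it in DESeq2 (FDR 0.0285). It also passed without male sham replicate 4 and female sham replicate 7 together (0.98, edgeR FDR 0.0424). No fit that left out 1 library passed, and without male sham replicate 6 the value was 0.65 (edgeR FDR 0.195).

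Amd2 was read from few counts, between 6 and 541 per library, where Amd1 averaged 10471. In SMC mice it lay between 1.59 and 17.4 CPM in males (median 8.29) and between 0.281 and 1.54 CPM in females (median 0.446). The male and female ranges did not overlap, and the log2 fold change was 3.47 (SE 0.571, edgeR FDR 0.000972). In sham mice it ran from 1.21 to 3.001 CPM in males (median 2.21) and from 0.230 to 2.35 CPM in females (median 0.354), and these ranges overlapped (log2 fold change 1.44, SE 0.576, edgeR FDR 0.213). Without female sham replicate 12 that value was 2.19 (edgeR FDR 0.0580).

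Odc1, the first enzyme of the pathway, varied more between mice than Amd1 in 3 of the 4 groups, by coefficient of variation, and less in male SMC mice (41.7% against 45.2%). It ran from 69.7 to 331 CPM in male sham mice (median 116) and from 35.0 to 148 CPM in female sham mice (median 70.1). In SMC mice the male values, 71.2 to 171 CPM (median 78.8), lay just above the female values, 38.8 to 68.3 CPM (median 47.3). The log2 fold changes, males over females, were 0.78 (SE 0.364, edgeR FDR 0.298) in sham and 1.01 (SE 0.367, edgeR FDR 0.266) in SMC mice. Without male sham replicate 4 the sham value was 0.38. In the SMC comparison Odc1 passed the threshold when only the 12 SMC libraries were fitted (1.01, edgeR FDR 0.0412). No fit that left out 1 library passed there, and without male SMC replicate 14 the value was 0.80 (edgeR FDR 0.466). Azin1, which protects ornithine decarboxylase from antizyme, averaged 36.5 ± 8.92 CPM in male and 25.5 ± 4.11 CPM in female sham mice, and 33.9 ± 8.00 and 25.8 ± 4.56 CPM in SMC mice. Its log2 fold changes of 0.51 (SE 0.162, edgeR FDR 0.0994) and 0.39 (SE 0.162, edgeR FDR 0.360) did not pass. The sham value passed in 1 of 24 fits that left out 1 library, that without male sham replicate 4 (0.61, edgeR FDR 0.0386). Without male sham replicate 1 it was 0.39 (edgeR FDR 0.248).

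For the synthases, the acetyltransferase and the antizymes a sex difference was not detected. Spermidine synthase, Srm, ran from 4.64 to 5.59 CPM in male sham mice (median 5.07) and from 3.87 to 5.49 CPM in female sham mice (median 4.18), and from 3.84 to 5.31 and from 3.89 to 5.87 CPM in the SMC mice of either sex. Spermine synthase, Sms, was at 59.1 to 97.6 CPM in male and 43.2 to 97.7 CPM in female sham mice, and at 47.7 to 101 and 54.4 to 71.4 CPM in SMC mice. The highest Sms value of the female sham group belonged to replicate 7, which was also highest in Amd1. Sat1, which marks polyamines for export by acetylating them, averaged 14.5 ± 2.48 CPM in male and 17.7 ± 4.27 CPM in female sham mice, and 13.9 ± 2.08 and 14.4 ± 2.88 CPM in SMC mice. Oaz1 averaged 138 ± 21.1 and 126 ± 14.3 CPM in sham males and females and 127 ± 11.5 and 120 ± 10.7 CPM in SMC males and females. Oaz2 lay at 63.1 ± 4.45 and 56.9 ± 7.47 CPM, and at 65.9 ± 6.20 and 59.6 ± 6.65 CPM, in the same order. The male and female ranges of these 5 genes overlapped in sham and in SMC mice, and none passed the test.

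In sham mice 1 of the 10 members was thus called between the sexes (background 1.97% of all genes, 0.835% higher in males), and 1 had ranges that did not overlap (background 1.13%, 0.609% higher in males). In SMC mice 3 were called (background 1.03%, 0.683% higher in males) and 4 did not overlap (background 2.08%, 1.21% higher in males). All of these were higher in males. The median log2 fold change of the members was 0.36 in sham and 0.27 in SMC mice, against -0.0022 and -0.0015 over all genes. Whether a sex difference depended on housing is the question of the interaction, in which no member passed.

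Averaging sham and SMC in the same fit, a comparison added after the data were seen, called 5 of 10 members (background 4.93%, 2.39% higher in males), all of them higher in males. Amd1 was 6.14-fold higher (log2 2.62, SE 0.192, edgeR FDR 1.13e-09), Amd2 5.47-fold (log2 2.45, edgeR FDR 0.000426) and Smox 2.39-fold (log2 1.26, edgeR FDR 4.28e-05). Azin1 was 1.37-fold higher (log2 0.45, edgeR FDR 0.0200) and Odc1 1.86-fold (log2 0.89, edgeR FDR 0.0439). The call of Odc1 was lost in 14 of 24 fits that left out 1 library, and without male sham replicate 4 and female sham replicate 7 (log2 0.67, edgeR FDR 0.0820). The other 5 did not pass: Oaz2 at 0.15 (95% interval 0.021 to 0.27, edgeR FDR 0.177), Sms at 0.18 (-0.069 to 0.42), Oaz1 at 0.11 (-0.029 to 0.24), Srm at 0.023 (-0.14 to 0.18) and Sat1 at -0.17 (-0.40 to 0.063). Sms and Sat1 lie on the X chromosome. Across the same comparison 5 of the 10 muscle atrophy genes and 1 of the 7 adipocyte markers were called lower in males. Slow fibre, Schwann cell and red blood cell markers were not called. Of these, 0 of 9 slow fibre (median log2 -0.58), 0 of 6 Schwann cell (-0.40) and 5 of 5 red blood cell markers (0.33) lay higher in males. The part of all these lists in the polyamine values was not tested.

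**Figure D2:**
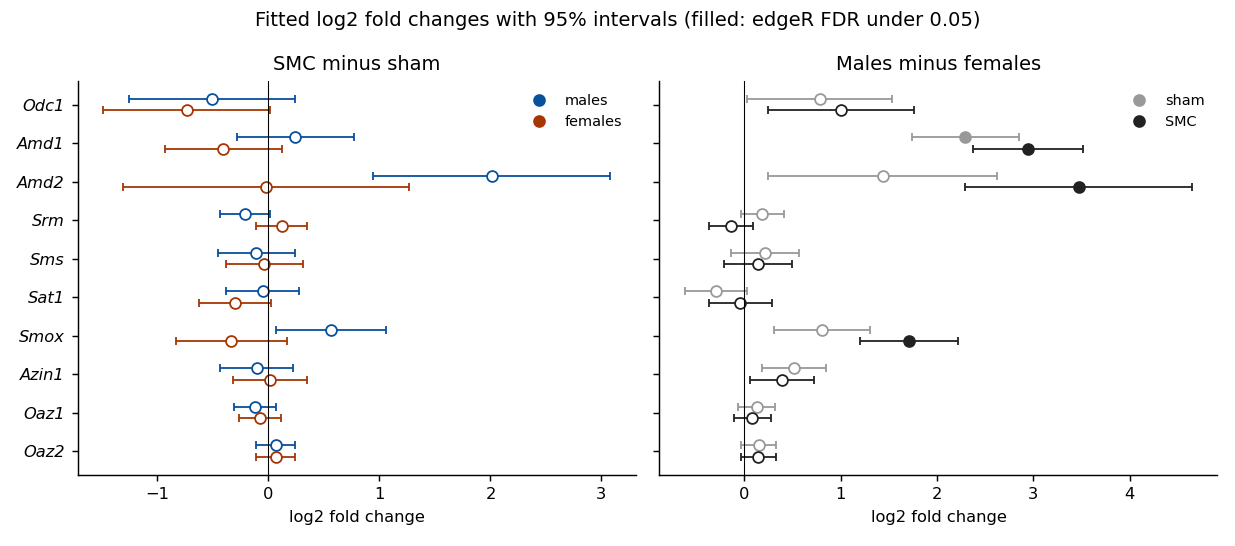
Fitted log2 fold changes of the 10 members with 95% intervals from edgeR, for SMC minus sham in each sex (left) and males minus females in each treatment (right), with filled points for an FDR under 0.05. The only filled points are Amd1 in sham and Amd1, Amd2 and Smox in SMC mice, all between the sexes, and every point of the left panel is open.

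**Figure D3:**
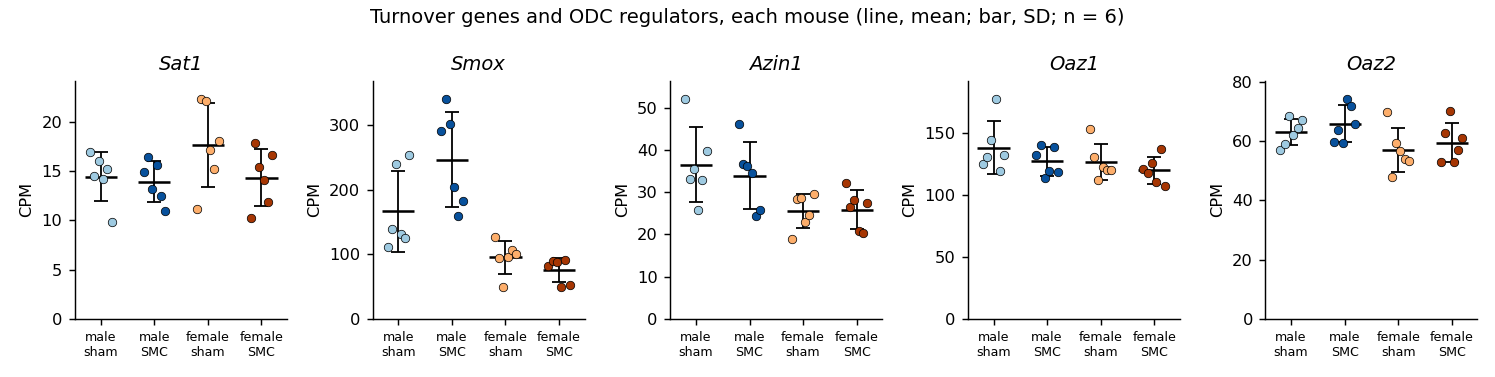
CPM of Sat1, Smox, Azin1, Oaz1 and Oaz2 in each mouse, with 1 point per mouse, the group mean as a line and the SD as a bar (n = 6 per group, separate linear axes from 0). Smox in male SMC mice begins at 160 CPM, above the female SMC maximum of 91.7 CPM, and the groups of the other 4 genes overlap.

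Whether housing in the SMC altered these genes was tested next. The sham and SMC libraries are those of the sex comparisons above, so both sets of values share their mice. In males 0 of 10 members were called (edgeR called 0% of all genes), 0 had ranges that did not overlap (background 0.902%) and 2 had an unadjusted p under 0.05 (background 11%). The first was Amd2, at 2.15 ± 0.580 CPM in sham and 8.64 ± 5.88 CPM in SMC mice. Its log2 fold change was 2.01 (SE 0.518, 95% interval 0.94 to 3.08, edgeR FDR 0.139). Of the 6 SMC mice, 1 lay within the sham range and 5 above it. The second was Smox, with 167 ± 62.8 CPM in sham and 247 ± 74.1 CPM in SMC mice and a difference of 0.56 on the log2 scale (SE 0.241, edgeR FDR 0.376). Odc1 had a log2 fold change of -0.51 (95% interval -1.26 to 0.24, edgeR FDR 0.665), which was -0.11 without male sham replicate 4. Amd1, at 593 ± 179 CPM in sham and 702 ± 318 CPM in SMC mice, had 0.24 (95% interval -0.29 to 0.77), which was 0.036 without male SMC replicate 14. The other 6 members lay between -0.21 for Srm (95% interval -0.44 to 0.017) and 0.064 for Oaz2 (-0.11 to 0.24).

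In females 0 of 10 members were called (background 0.341%), 0 did not overlap (background 1.03%) and 0 had an unadjusted p under 0.05 (background 12.5%). Odc1 came nearest, with 85.3 ± 49.4 CPM in sham and 51.2 ± 13.1 CPM in SMC mice and a log2 fold change of -0.74 (95% interval -1.49 to 0.018, edgeR FDR 0.416). Sat1 had -0.30 (95% interval -0.63 to 0.022), Amd1 -0.41 (-0.94 to 0.13) and Smox -0.33 (-0.83 to 0.16). Without female sham replicate 7 the Amd1 value was -0.18. The upper bound of the female interval of Smox, 0.16, lies below the male estimate of 0.56, and the test of that difference is given next.

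Over both sexes 0 of 10 members were called (background 2.36%). These included Odc1, with -0.62 on the log2 scale (SE 0.258, edgeR FDR 0.199), and Amd2, with 0.996 (SE 0.402, edgeR FDR 0.190), which were the 2 members with an unadjusted p under 0.05 (background 17.5%). The antizymes were measured most tightly, with intervals of -0.23 to 0.036 for Oaz1 and -0.061 to 0.19 for Oaz2. The difference of the SMC response between the sexes called 0 of 10 members (background 0%), while 3 had an unadjusted p under 0.05 (background 5.13%). These were Smox, at 0.90 (SE 0.341, edgeR FDR 0.926), Amd2, at 2.03 (SE 0.806, edgeR FDR 0.926), and Srm, at -0.33 (SE 0.156, edgeR FDR 0.955). The Amd2 value was 1.28 without female sham replicate 12. Amd1 had 0.65 (95% interval -0.10 to 1.4, edgeR FDR 0.955), which was 0.41 without female sham replicate 7. DESeq2 called 0 members in these 4 comparisons too, and limma with quality weights did the same.

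Amd2 counts were also read as a percent of Amd1 counts in each library, a value added after the data were seen and given with no test. It was 0.305% to 0.433% in male sham mice (median 0.366%). In male SMC mice it ran from 0.419% to 2.60% (median 1.32%). It ran in female sham mice from 0.221% to 1.97% (median 0.365%) and in female SMC mice from 0.318% to 2.03% (median 0.443%). The medians of male and female sham mice were thus close. The part of reads shared with Amd1 in the sex differences of Amd2 was not tested. The values did not spread evenly: 18 libraries lay between 0.221% and 0.632% and 6 between 1.73% and 2.60%. The 6 were male SMC replicates 15, 16 and 18, female sham replicate 12 and female SMC replicates 22 and 24. In each of these groups the same libraries also held the highest Amd2 levels, a value that is itself part of the share.

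**Figure D4:**
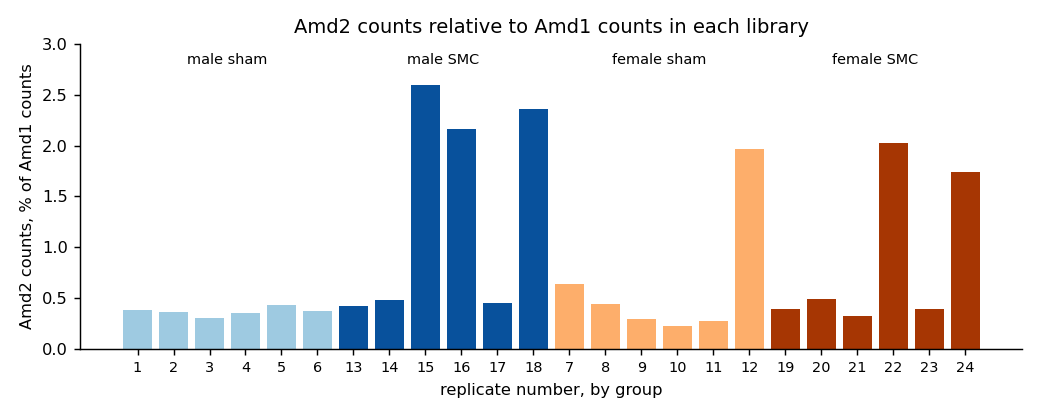
Amd2 counts as a percent of Amd1 counts in each of the 24 libraries, 1 bar per mouse in the order of the replicate numbers within each group (linear axis from 0). Bars near or above 1.73% stand in 3 SMC males, 2 SMC females and 1 sham female, and every other bar is at or below 0.632%.

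Members also varied together among mice of the same group. After the group means were removed from log2 CPM, 3 of 45 pairs passed a permutation test of Pearson's r within groups and 7 passed by Spearman's rho (n = 24 mice, 100000 resamples, adjusted over the 45 pairs). Amd1 and Sms had the highest correlation, with Pearson's r = 0.905 and Spearman's rho = 0.926 (permutation p = 1e-05, the smallest these resamples can give, adjusted p = 0.00045), and r = 0.864 without the 2 mice farthest from the median of Amd1. Amd1 and Smox had r = 0.794 and rho = 0.835 (permutation, adjusted p = 0.00045), and r = 0.761 without the 2 farthest mice. Sms and Smox had r = 0.639 and rho = 0.719 (permutation, adjusted p = 0.0439 and 0.00585), and 0.567 without the 2 farthest. The other 4 pairs passed by rank only, and each held Odc1. Odc1 and Amd1 had r = 0.585 (permutation, adjusted p = 0.0876) and rho = 0.778 (permutation, adjusted p = 0.0015). Odc1 had rho = 0.709 with Sms, 0.614 with Smox and 0.591 with Oaz1 (permutation, adjusted p = 0.00666, 0.0282 and 0.0327), where r was 0.536, 0.519 and 0.553 (permutation, adjusted p = 0.123 for each). Without male sham replicate 4 and female sham replicate 7 the pair of Odc1 and Amd1 had r = 0.700 (permutation, adjusted p = 0.00169). Odc1 then had r = 0.642 with Sms and 0.710 with Smox (permutation, adjusted p = 0.0113 and 0.00169). With Oaz1 it had r = 0.434 and did not pass (permutation, adjusted p = 0.157). Values of a pair come from the same library and share its depth and scaling. Without the TMM factors r was 0.878 for Amd1 and Sms, 0.767 for Amd1 and Smox and 0.630 for Sms and Smox. For Odc1 and Oaz1 it was 0.397. Fibre make-up may be shared too. Male SMC replicates 13 and 14 were lowest of their group in slow fibre markers (846 and 628 CPM) and highest in Amd1 (999 and 1171 CPM). Female sham replicate 7 was likewise lowest and highest. In male sham and female SMC mice the mouse lowest in these markers was not the highest in Amd1. The part of fibre markers in the correlations was not tested. Sms itself did not pass the threshold between the sexes in either treatment.

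**Figure D5:**
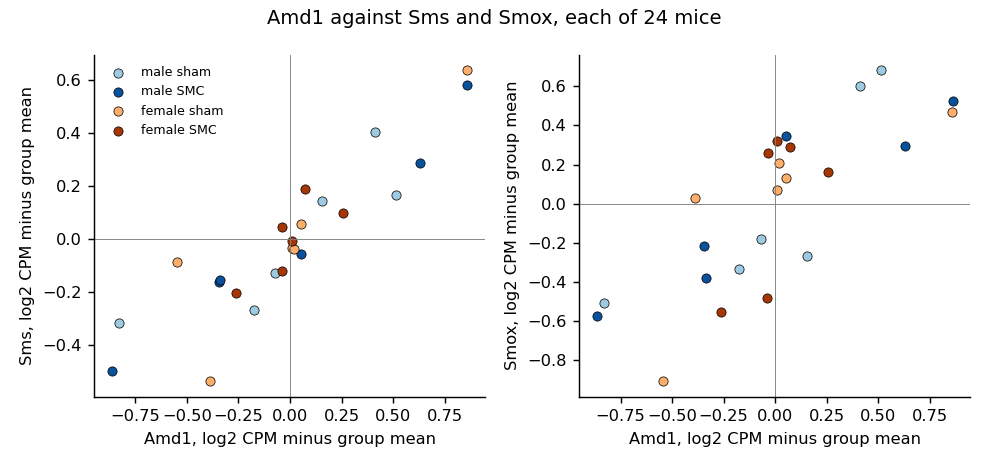
Log2 CPM of Sms (left) and Smox (right) against Amd1, each minus its group mean, with 1 point per mouse coloured by group (n = 24). Points of all 4 groups rise from lower left to upper right, with r = 0.905 for Sms and r = 0.794 for Smox.

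Among the 16408 genes tested, those most like a member across the 24 libraries were taken as the 3 non-members with the highest r of group-centred log2 CPM. For Amd1 they were Lsm14a (0.892), Fgd4 (0.873) and Cdk19 (0.872). For Smox they were Xrra1 (0.906), Cited4 (0.797) and Laptm4b (0.791). For Odc1 they were Ubl7 (0.852), Mtss1l (0.832) and Rora (0.805). The order within these lists depended on male sham replicate 4 and female sham replicate 7. Without them Cdk19 (0.960) stood above Lsm14a (0.883) for Amd1, and Rora (0.834) above Ubl7 (0.805) for Odc1. The order for Smox was kept, and the search over all genes was not repeated there.

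The wider pathway was read from 28 other genes of arginine and ornithine supply, S-adenosylmethionine supply and salvage, turnover, transport and the hypusination of eIF5A, the modification for which spermidine is the donor. Of these 22 were tested, and 0 were called in any of the 7 comparisons. In males the lowest p with SMC was that of Slc7a2, a transporter of cationic amino acids, at -0.83 (SE 0.275, edgeR FDR 0.265). In females it was that of Dohh, the hydroxylase that completes hypusine, at -0.27 (SE 0.103, edgeR FDR 0.243). Over both sexes Slc18b1, a vesicular polyamine transporter, had 0.28 (SE 0.0967, edgeR FDR 0.113). Between the sexes, averaged over treatment, Adi1 of the methionine salvage pathway had 0.28 in favour of males (SE 0.0913, edgeR FDR 0.0850). The tested pathway genes had a median log2 fold change between the sexes of 0.00080 there, against 0.32 for the 10 members and -0.0037 for all genes.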

How the data were processed

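RNA of gastrocnemius muscle from 24 mice was sequenced after ribosomal RNA depletion with a directional kit. The deposited values are raw counts per Ensembl gene, 1 column per mouse, which the authors did not normalize. The submitters' processing notes list cutadapt 1.16, STAR 2.7.9a, featureCounts 1.6, DESeq2 1.34.0 and the build GRCm39. The release of the annotation and whether counting used strand are not given in the sources used here. Symbols, exon lengths and transcripts were taken from GENCODE M21 on GRCm38, which named 52083 of 55416 genes (those unnamed took 0.361% of counts). Library totals of 23026627 to 36880413 counts set the precision of low genes such as Amd2.

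Sex and treatment labels set the groups. Genes were filtered with filterByExpr, scaled by TMM and fitted with edgeR 4.0.16 (R 4.3.3, quasi-likelihood F test, 1 mean per group over all 24 libraries). Tests were two-sided with Benjamini-Hochberg FDR over 16408 genes and a threshold of 0.05. Standard errors were derived from the F statistic, and the p-values measure the spread between these mice. Log2 CPM used a prior count of 2. Alternatives were RLE scaling, DESeq2 1.42.0, limma 3.58.1 with quality weights, at least 10 counts in every library, no filter, only the groups compared, Amd1 and Amd2 added, and libraries left out. Correlations were also computed on CPM without TMM factors. The tests were first tried on simulated data with known changes. All 10 members were named, with 28 pathway genes by count and up to 3 of them per comparison by smallest p. The members and lists were chosen with earlier results of these data known.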

Additional observations from a re-analysis of the deposited data

Results flagged for a closer look

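Of 40 groups of 6 mice (10 members in 4 groups), 2 held a mouse far from the others by Dixon's ratio, about the number that chance gives at 1 in 20. Odc1 in male sham replicate 4 was at 331 CPM, where the other male sham mice lay between 69.7 and 159 CPM. Amd1 in female sham replicate 7 was at 208 CPM, where the other female sham mice lay between 78.8 and 119 CPM. These are the libraries with low slow fibre markers, at 67.4 and 58.8 CPM. They also held the highest sums of muscle atrophy genes of their groups, at 5172 and 3073 CPM against medians of 1079 and 1737. Amd1 in female sham replicate 7 was still below the lowest male mouse, at 319 CPM. The part of the fibre markers and of the atrophy genes in both values was not tested.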

How the results depend on the processing

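Counts of members called changed as follows under the alternatives. In sham mice 2 members in place of 1 were called between the sexes under DESeq2 and without male sham replicate 4 and female sham replicate 7 (Smox being added, log2 0.81 and 0.98). In SMC mice 4 in place of 3 were called when only those libraries were fitted (Odc1 being added, log2 1.01). With 10 counts asked of every library, or Amd1 and Amd2 added, Amd2 was not tested on its own, which left 2 in SMC mice and 4 in place of 5 over both treatments. Over both treatments 4 were also called under limma and without both sham libraries. Without these libraries 6 in place of 3 pairs passed by Pearson's r. Of 516 values of members under alternatives other than single libraries left out, 504 kept direction and side of the threshold. The added sex difference of Odc1 lost its call under limma (log2 0.69, FDR 0.0538) and without both sham libraries (0.67). Signs changed only in values that were not called. With SMC in females these were Amd2 (0.57) and Sms (0.031) under limma, and Amd2 (0.16), Sms (0.12) and Azin1 (-0.052) without both sham libraries. Over both sexes they were Amd1 (0.035) and Sms (0.013) without both sham libraries. Leaving out 1 library at a time, members called between the sexes ranged from 1 to 2 in sham, 3 to 3 in SMC and 4 to 5 over both, and were 0 in every other comparison. Log2 fold changes that crossed 0 ranged with SMC in males from -0.22 to 0.019 (Azin1), in females from -0.37 to 0.73 (Amd2), -0.13 to 0.12 (Sms) and -0.052 to 0.082 (Azin1), and over both sexes from -0.18 to 0.027 (Amd1), -0.14 to 0.0014 (Sms) and -0.10 to 0.016 (Azin1). In the interaction they ranged from -0.0023 to 0.62 (Odc1), -0.24 to 0.019 (Sms), -0.24 to 0.0064 (Azin1), -0.12 to 0.024 (Oaz1) and -0.080 to 0.044 (Oaz2), and between the sexes from -0.13 to 0.030 (Sat1 in SMC mice) and -0.0050 to 0.059 (Srm over both). The cause was not tested.

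Counts over all genes moved more. With SMC in males 0 genes were called by edgeR, 1805 at an unadjusted p under 0.05, 128 by DESeq2 and 93 by limma. In females 56 became 268 (DESeq2), 16 (limma), 37 (RLE), 14 (groups compared only) and 155 (without both sham libraries), and over both sexes 388 became 778 (DESeq2) and 189 (no filter). The interaction called 0 genes by edgeR, 841 at an unadjusted p under 0.05 and 1 by DESeq2. Between the sexes 324 became 575 (DESeq2), 58 (groups compared only) and 511 (without both sham libraries) in sham mice, 169 became 322 (DESeq2), 546 (limma), 287 (groups compared only) and 289 (without both sham libraries) in SMC mice, and 809 became 1420 (limma) and 1268 (without both sham libraries) over both. The low counts of Amd2 limit its precision. No paired analysis was possible because the labels do not link a mouse of one group to a mouse of another.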

Other observations

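Of the 28 other pathway genes, 6 were too low to test: Arg1, Arg2 and Agmat of arginine supply, the liver form Mat1a, the transporter Atp13a4 and the testis antizyme Oaz3. Oaz3 averaged 0.0316 and 0.101 CPM in male sham and SMC mice and 0.0697 and 0.0601 CPM in the females.

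Spread between mice of a group differed widely among members. In male sham mice the coefficient of variation was 65.5% for Odc1, 30.2% for Amd1 and 37.6% for Smox, against 6.82% for Srm and 7.05% for Oaz2. In female SMC mice it was 25.5%, 11.7% and 25.4%, against 15.2% and 11.2%. These ratios were not compared by a test.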
